A study of Mus musculus with 16 samples.

Results

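A set of 8 genes of sterol sensing, LDL uptake control and intracellular sterol transport were followed in mouse liver: *Srebf2*, *Scap*, *Insig1*, *Insig2*, *Mylip*, *Stard4*, *Npc1* and *Tmem97*. They were chosen by name, and each was found among the 52143 genes of the count table and passed the filter on low counts, which kept 11324 genes. The 16 liver libraries came from male C57BL6/J mice, 1 library per mouse and 4 in each of 4 groups. Mice aged 6 weeks were put on chow or a high-fat diet (HFD) and stayed on it for 12 weeks. Injections were given every 2 weeks. The Chow and HFD groups received saline, and the Chow/FGFR4 KD and HFD/FGFR4 KD groups received *Fgfr4* siRNA at 3 mg/kg, coupled to N-acetylgalactosamine, a sugar that hepatocytes take up. FGFR4 is the hepatocyte receptor for FGF15, a gut hormone that restrains bile acid synthesis. No group received a control siRNA, so an effect of siRNA as such and the loss of FGFR4 cannot be told apart. Mice were housed 4 to a cage, and which cages held which groups was not given in the sources used here.

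SREBP-2, the product of *Srebf2*, is a transcription factor made as a precursor in the membrane of the endoplasmic reticulum. When sterols are scarce, its escort SCAP carries it to the Golgi, where proteases release the active fragment, which switches on genes of cholesterol synthesis and LDL uptake. When sterols are plentiful, the INSIG proteins hold SCAP back. *Insig1* and *Srebf2* are themselves SREBP targets, whereas *Insig2* is expressed in liver from its own promoters and is lowered by insulin. MYLIP (IDOL) is an LXR-induced ubiquitin ligase that limits LDL uptake. NPC1 exports LDL-derived cholesterol from lysosomes, STARD4 carries cholesterol between membranes, and TMEM97 is a membrane protein that binds NPC1. mRNA levels do not show how much SREBP-2 was cleaved.

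The promoter windows of 3 genes are printed first because *Srebf2*, *Insig1* and *Tmem97* moved together across the libraries. Windows hold 300 bases, 250 before and 50 after a transcript start, from RefSeq on GRCm38.p6, and were searched for 6 of the 8 genes. *Stard4* and *Npc1* were left out by chromosome, so motifs in their windows were not examined. Capitals mark exact matches on either strand. The motifs searched were the NF-Y box, with the letters CCAAT or their reverse complement. A second motif was the E-box, CACGTG. The third was TCACCCCA, part of a sterol regulatory element, and no matches of different motifs overlapped. *Srebf2* is at chr15:82147019-82147318 (+), *Insig1* at chr5:28071162-28071461 (+) and *Tmem97* at chr11:78550686-78550985 (-), each written 5′ to 3′ on the strand of the gene.
Srebf2: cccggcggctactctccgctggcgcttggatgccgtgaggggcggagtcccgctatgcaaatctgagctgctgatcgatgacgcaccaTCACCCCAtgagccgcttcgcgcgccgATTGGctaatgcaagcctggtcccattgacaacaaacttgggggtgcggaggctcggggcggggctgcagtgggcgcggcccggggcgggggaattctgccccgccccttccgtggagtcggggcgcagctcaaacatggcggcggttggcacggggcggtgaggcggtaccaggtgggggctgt
Insig1: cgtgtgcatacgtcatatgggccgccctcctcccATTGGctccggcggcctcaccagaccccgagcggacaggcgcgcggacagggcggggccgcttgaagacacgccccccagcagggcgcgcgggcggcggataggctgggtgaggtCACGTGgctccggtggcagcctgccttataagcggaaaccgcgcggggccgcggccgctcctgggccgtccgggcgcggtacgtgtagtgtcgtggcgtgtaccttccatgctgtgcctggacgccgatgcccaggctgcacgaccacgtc
Tmem97: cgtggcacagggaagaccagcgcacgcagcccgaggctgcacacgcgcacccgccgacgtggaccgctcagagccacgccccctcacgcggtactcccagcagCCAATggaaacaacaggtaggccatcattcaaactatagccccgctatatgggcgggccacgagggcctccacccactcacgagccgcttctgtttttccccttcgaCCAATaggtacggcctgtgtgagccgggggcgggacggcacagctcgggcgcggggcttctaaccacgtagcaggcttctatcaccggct

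The letters TCACNCCAC, a sterol regulatory element, matched none of the windows of the 6 genes, against 1.24% of all 32851 promoter windows. The shorter TCACCCCA, searched after the windows had been read, occurred in *Srebf2*, at -162 to -155 counted from the start, and in 1.56% of all windows. The NF-Y box, bound by a factor that works beside SREBP, occurred in the windows above and in a window each of *Mylip* and *Insig2*. It was also in 37.4% of all windows, and 41.1% of all genes had it in any window. An E-box, found in 7.15% of all windows and for 8.09% of all genes, was present in *Insig1* and *Scap*. Of 15 cholesterol synthesis genes with a window, 14 held an NF-Y box, 3 an E-box and 1 the sterol regulatory element.

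The libraries held 3445949 to 5976449 counts, of which 1 gene, Gm42418, took 11.1% to 22.7%. Levels are given as CPM, a gene's count relative to the size of its library after scaling with TMM factors. The knockdown (KD) was seen in *Fgfr4* itself, which fell by 2.78 on the log2 scale on HFD and by 2.62 on chow (limma-voom, Benjamini-Hochberg adjusted p 9.06e-05 and 0.000223). The hepatocyte markers were all detected in every group, with a summed level from 49745 to 71049 CPM per library. In a comparison of log2 CPM over all tested genes, HFD/FGFR4 KD 1 stood apart from its group: its mean Pearson's r with the other libraries of its group was -0.11, and with the Chow libraries it was 0.03. The other libraries of its group had mean r-values of 0.18 to 0.24 with their group. Most changes of the 8 genes, and the counts of some lists, in comparisons that use this library are also given without it. A difference in a bulk tissue can come from fewer cells of a type or from less RNA per cell, which cannot be told apart.

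Levels of different genes can be compared per length, here per kilobase of the longest protein-coding transcript. The labels name KAPA mRNA HyperPrep as the library kit, whereas the methods of the study name HTG EdgeSeq, and the order below would not hold for a probe assay. Per kilobase, *Insig1* was the highest of the 8 genes, with a mean of 116 CPM per kilobase over 16 libraries, followed by *Insig2* with 89.0. *Tmem97* followed with 37.7 CPM per kilobase, *Scap* with 22.3, *Stard4* with 19.9, *Npc1* with 17.3 and *Srebf2* with 10.6. *Mylip* was lowest, with 1.77 CPM per kilobase and from 3 to 48 counts per library. *Insig1* lay above *Insig2* in 13 of 16 libraries, *Scap* above *Stard4* in 12, *Stard4* above *Npc1* in 9 and *Npc1* above *Srebf2* in 14, so these neighbours overlapped. *Insig2* exceeded *Tmem97*, *Tmem97* exceeded *Scap*, and *Srebf2* exceeded *Mylip* in 16 of 16 libraries. This order depends on the length used. *Scap* has a median protein-coding transcript length of 597 bases, against 4227 for the longest. For *Insig2* these lengths are 557 and 2697 bases, and for *Stard4* 941 and 5097. *Tmem97* and *Scap* share 25.6% and 11.3% of their 31-base words with transcripts of other genes, and *Npc1* overlaps 2 genes on the opposite strand, which makes these levels less certain.

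**Figure D1:**
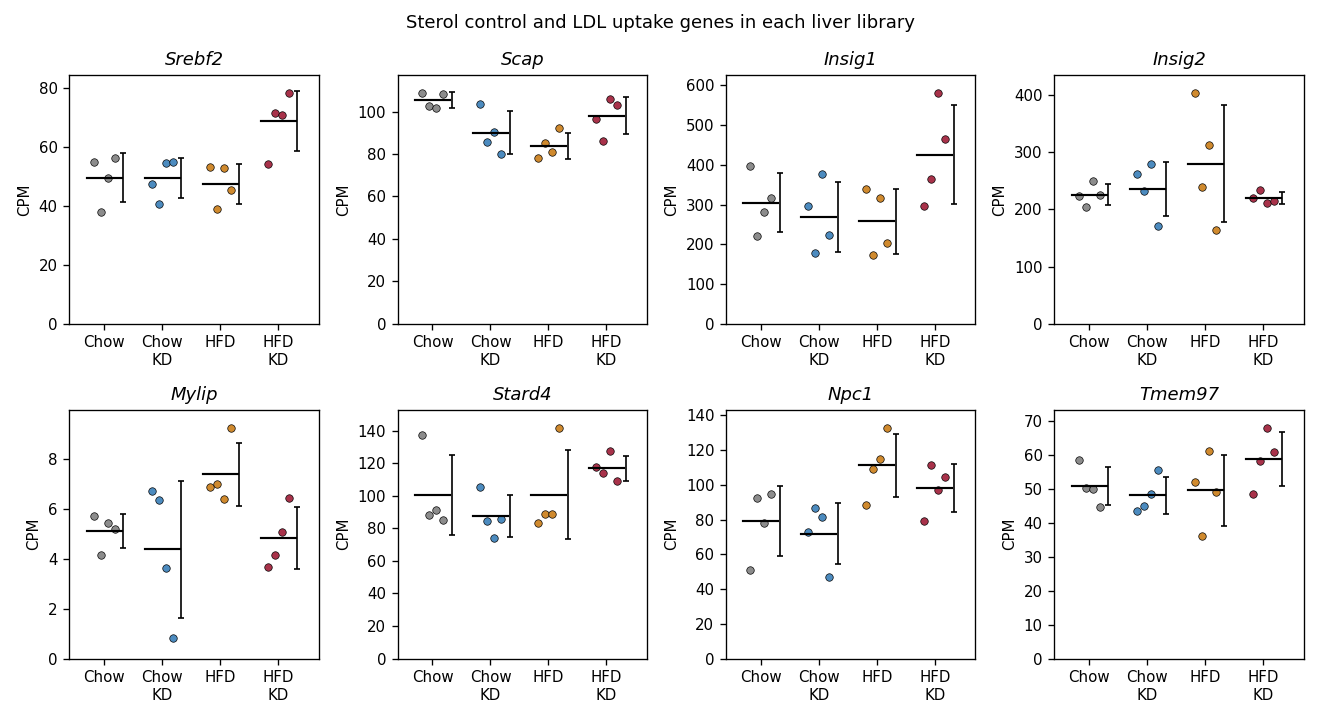
Level of each gene in CPM (vertical axis, from 0) in the 4 libraries of each group (points; Chow KD and HFD KD stand for Chow/FGFR4 KD and HFD/FGFR4 KD). Horizontal lines are means and whiskers 1 SD. *Srebf2* in HFD/FGFR4 KD, from 54.2 to 78.2 CPM, lay above every HFD library.

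The question asked first was what FGFR4 KD did on HFD. *Srebf2* rose and was the only one of the 8 genes called. Calls follow the methods of the study: an unadjusted p under 0.05 together with an adjusted p (Benjamini-Hochberg, over all tested genes) under 0.25. With KD on HFD, 3.14% of all tested genes were called in either direction and 1.5% were called higher, against 1 of the 8. At an adjusted p under 0.05 none of the 8 was called, against 0.274% of all genes. At an unadjusted p under 0.05 there were 3 (*Srebf2*, *Scap* and *Insig1*), against 11% of all genes. The median log2 change of the 8 genes was 0.24, and that of all tested genes was 0.00356.

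*Srebf2* (ENSMUSG00000022463; chromosome 15, 82147181 to 82205379 in GRCm38, protein-coding) was at 53.1, 38.9, 52.7 and 45.3 CPM in HFD 1 to 4. In HFD/FGFR4 KD 1 to 4 it was at 54.2, 71.7, 70.9 and 78.2 CPM. The groups did not overlap, which held for 6.49% of all genes, but HFD/FGFR4 KD 1 lay close to the highest HFD library. The mean rose from 47.5 ± 6.76 to 68.8 ± 10.2 CPM (SD, n = 4). By limma-voom this was 0.53 on the log2 scale (SE 0.143, adjusted p 0.160). Without HFD/FGFR4 KD 1 the change was 0.64 (adjusted p 0.115). The call was lost without HFD/FGFR4 KD 3 (0.51, adjusted p 0.322), without HFD/FGFR4 KD 4 (0.46, adjusted p 0.355) and when counts were scaled by library totals only (0.45, adjusted p 0.476). *Mir33*, a microRNA gene, lies within *Srebf2* on the same strand. No marker of Kupffer cells and macrophages (11), stellate cells (6) or endothelial cells (6) was called in this comparison. Of 6 hepatocyte markers 1, *Ttr* (-0.51), was called lower, at a summed level of 53008 to 66437 CPM in HFD and 52065 to 71049 CPM in HFD/FGFR4 KD. The 1 tested adipocyte marker, *Cfd*, was called lower too (-1.57), but not without HFD/FGFR4 KD 1 (-1.68). The 4 adipocyte markers summed to 10.8 to 24.3 CPM in HFD and 3.81 to 8.16 CPM in HFD/FGFR4 KD, and 1 of them was at 0 in every library. Nearly all of this sum was *Cfd*, with means of 17.5 CPM in HFD and 5.72 CPM in HFD/FGFR4 KD. *Adipoq* (0.038 and 0.041 CPM) and *Plin1* (0 and 0.065 CPM) were near 0 in both groups and not lower with KD. The part of these markers in the change of *Srebf2* was not tested.

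*Insig1* (ENSMUSG00000045294; chromosome 5, 28071363 to 28078662) was at 339, 172, 316 and 203 CPM in HFD 1 to 4. With KD it was at 296, 363, 580 and 464 CPM, so that 3 of 4 KD libraries lay above the highest HFD library. The mean was 257 ± 82.3 CPM on HFD and 426 ± 124 CPM with KD (SD, n = 4). The log2 change of 0.74 (SE 0.268) did not pass the threshold (adjusted p 0.303 by limma-voom). Without HFD/FGFR4 KD 1 the change was 0.90 (adjusted p 0.293). DESeq2 (0.72, adjusted p 0.243) and a fit with library quality weights (0.70, adjusted p 0.238) called it.

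*Insig2* (ENSMUSG00000003721; chromosome 1, 121304353 to 121332589) was spread widely on HFD, at 403, 238, 312 and 165 CPM, and narrowly with KD, at 220, 234, 212 and 214 CPM. Its log2 change was -0.27 (SE 0.202, adjusted p 0.689 by limma-voom), and this size depended on the HFD libraries: it was -0.07 without HFD 1 and -0.50 (adjusted p 0.283) without HFD 4. The ratio of *Insig1* to *Insig2* was 0.841, 0.722, 1.01 and 1.23 in HFD 1 to 4 and 1.35, 1.55, 2.74 and 2.17 in HFD/FGFR4 KD 1 to 4, with no overlap. The mean ratio was 0.952 ± 0.221 on HFD and 1.95 ± 0.632 with KD (SD, n = 4). It was 1.35 ± 0.324 in Chow and 1.14 ± 0.269 in Chow/FGFR4 KD, so that the ratios of the chow groups overlapped each other. The ratio was chosen after its values were seen and is given with no test.

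**Figure D2:**
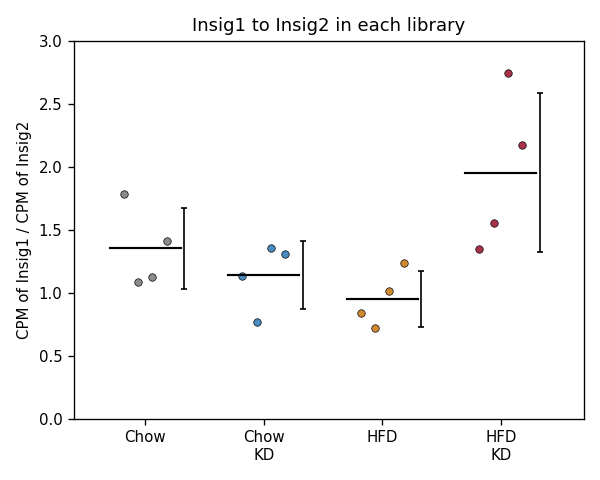
CPM of *Insig1* divided by CPM of *Insig2* (vertical axis, from 0) in each library (points), with the group mean (line) and SD (whisker), n = 4 per group. HFD/FGFR4 KD libraries ranged from 1.35 to 2.74, above the HFD libraries at 0.722 to 1.23.

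*Scap*, the escort of SREBP-2 (ENSMUSG00000032485; chromosome 9, 110333288 to 110384950), was at 78.0, 85, 81.0 and 92.1 CPM in HFD and 96.8, 86.2, 106 and 103 CPM in HFD/FGFR4 KD. The groups overlapped at HFD/FGFR4 KD 2. The log2 change was 0.22 (SE 0.0894, limma-voom adjusted p 0.368), and it was called without HFD/FGFR4 KD 2 (0.28, adjusted p 0.225) and with quality weights (0.24, adjusted p 0.224). *Tmem97* (ENSMUSG00000037278; chromosome 11, 78541817 to 78550777) had 52.0, 36.0, 61.3 and 49.1 CPM on HFD and 48.6, 58.2, 68.0 and 60.9 CPM with KD, overlapping ranges with a log2 change of 0.27 (SE 0.143, adjusted p 0.526 by limma-voom). Without HFD 2 the change of *Tmem97* was 0.12, and without HFD/FGFR4 KD 1 it was 0.36 (adjusted p 0.481).

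*Stard4* (ENSMUSG00000024378; chromosome 18, 33199355 to 33213862) was at 83.1, 88.8, 89.1 and 142 CPM in HFD, where HFD 4 stood alone, and at 118, 114, 127 and 109 CPM with KD. Its log2 change was 0.26 (SE 0.166, adjusted p 0.621 by limma-voom) and 0.43 without HFD 4 (adjusted p 0.286). *Npc1* (ENSMUSG00000024413; chromosome 18, 12189692 to 12236400) had overlapping ranges, with 88.4 to 133 CPM on HFD and 79.2 to 111 CPM with KD (log2 change -0.18, SE 0.196, limma-voom adjusted p 0.798). *Mylip* (ENSMUSG00000038175; chromosome 13, 45389742 to 45412022) was at 6.89, 7, 6.42 and 9.25 CPM on HFD and at 3.67, 4.14, 5.08 and 6.45 CPM with KD. Only HFD/FGFR4 KD 4 and HFD 3 overlapped, and the log2 change was -0.60 (SE 0.328, adjusted p 0.528 by limma-voom). Leaving out HFD/FGFR4 KD 1 gave log2 changes of 0.23 for *Scap*, 0.25 for *Stard4*, -0.08 for *Npc1*, -0.49 for *Mylip* and -0.27 for *Insig2*, none of them called. The call of *Srebf2* then stood as 1 of 8, while the number of all tested genes called was 137 in place of 356.

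**Figure D3:**
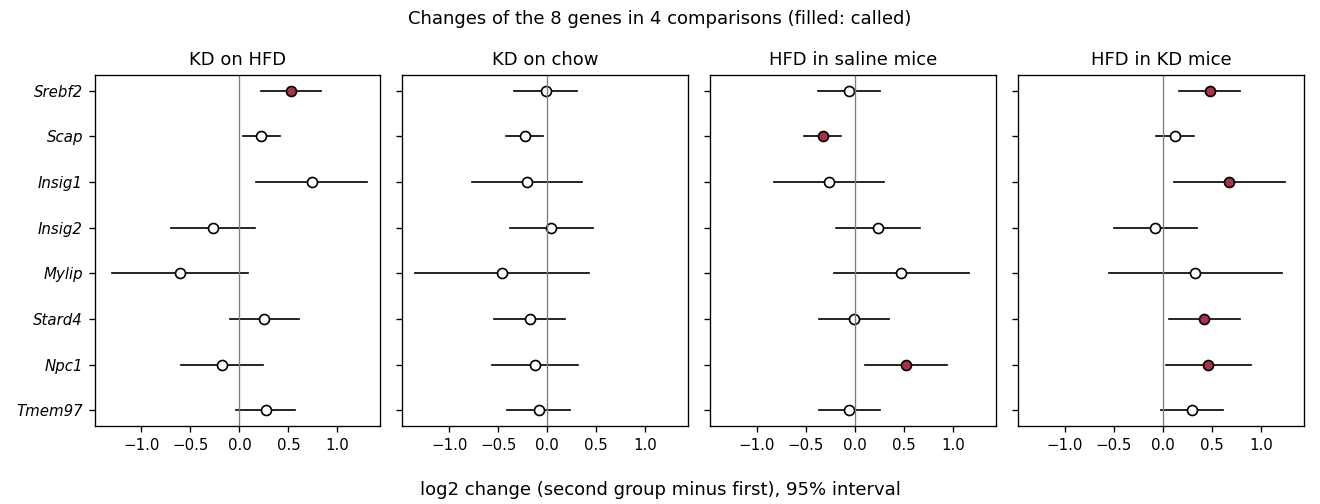
Log2 change of each gene (horizontal axis) with its 95% interval in 4 comparisons, from limma-voom with all 16 libraries. Filled points were called. *Srebf2* was called with KD on HFD (0.53), *Scap* and *Npc1* with HFD in saline mice (-0.33 and 0.52), and 4 genes with HFD in KD mice.

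On chow, none of the 8 genes was called after KD, against 0.00883% of all tested genes (1 gene), and no gene had groups without overlap, against 2.52%. At an unadjusted p under 0.05 there was 1, *Scap*, against 4.59% of all genes, and DESeq2 and edgeR's quasi-likelihood test also called none. *Srebf2* was at 54.8, 38, 49.5 and 56.1 CPM in Chow 1 to 4 and at 47.4, 40.8, 54.6 and 54.9 CPM in Chow/FGFR4 KD, a log2 change of -0.01 with a 95% interval from -0.33 to 0.31. *Insig1* was at 398, 220, 281 and 317 CPM in Chow and at 296, 177, 378 and 223 CPM with KD. Its log2 change was -0.21, with an interval from -0.77 to 0.36. *Scap* was at 109, 103, 102 and 109 CPM in Chow and at 104, 85.9, 90.5 and 79.9 CPM with KD (log2 change -0.23, limma-voom adjusted p 0.976). *Mylip* had only 3 counts in Chow/FGFR4 KD 4, and its log2 change of -0.46 became 0.12 without that library. The median change of the 8 genes was -0.15, and that of all genes was 0.00408.

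The difference between the KD effects on HFD and on chow was tested directly. It called none of the 8 genes, against 0.0353% of all genes, although 3 had an unadjusted p under 0.05, against 6.76% of all genes, and edgeR's test called none as well. For *Scap* the difference was 0.45 on the log2 scale (SE 0.127, limma-voom adjusted p 0.567), the only one that DESeq2 called (0.45, adjusted p 0.197). It was 0.54 for *Srebf2* (adjusted p 0.678) and 0.94 for *Insig1* (adjusted p 0.685), both by limma-voom. Without HFD/FGFR4 KD 1 these became 0.65 and 1.1, with adjusted p-values of 0.678 and 0.730. *Stard4* (0.43) and *Tmem97* (0.35) had positive differences as well, and those of *Insig2* (-0.31), *Mylip* (-0.14) and *Npc1* (-0.06) were below 0, with limma-voom adjusted p-values from 0.773 to 0.988. None of the 8 was called without HFD/FGFR4 KD 1, and the median difference was 0.44 in place of 0.39.

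HFD in saline mice changed genes across the table: 26% of all tested genes were called, 9.2% at an adjusted p under 0.05, and in 16.1% the groups did not overlap. Of the 8 genes, 2 were called and 1 had an adjusted p under 0.05. *Scap* fell from 105 ± 3.74 CPM in Chow to 84.0 ± 6.14 CPM in HFD (SD, n = 4), and every HFD library lay below every Chow library. On the log2 scale it fell by 0.33 (SE 0.0893, adjusted p 0.0281 with limma-voom). The call held in 8 of 8 fits that left out a library. It rests on the scaling. With library totals only the change was -0.05 (adjusted p 0.767), and that scaling shifted the median log2 change of all genes by 0.28 in this comparison. Of 6 hepatocyte markers 3 were called lower, at a summed level of 53031 to 61316 CPM in Chow and 53008 to 66437 CPM in HFD. Of 6 stellate cell markers 4 were called higher, at 68.4 to 96.0 and 115 to 234 CPM, and of 6 endothelial markers 3 were, at 102 to 132 and 121 to 133 CPM. None of these markers was at 0 in every library, and their part in the change of *Scap* was not tested.

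*Npc1* rose from 51.3, 92.5, 78.0 and 94.9 CPM in Chow to 88.4, 109, 115 and 133 CPM in HFD (log2 change 0.52, SE 0.199, limma-voom adjusted p 0.109). The ranges overlapped at HFD 1. The call was lost without Chow 1 (0.32, adjusted p 0.329) and without HFD 4 (0.43, adjusted p 0.225 with an unadjusted p of 0.0590). In the same comparison 10 of 11 tested markers of Kupffer cells and macrophages, which also express *Npc1*, were called higher, with a median log2 change of 1.04. Their summed level was 80.9 to 85.4 CPM in Chow and 142 to 247 CPM in HFD, and none was at 0 in every library. Their part in the change of *Npc1* was not tested.

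*Mylip* was the other gene whose Chow and HFD libraries did not overlap, at 4.16 to 5.72 and 6.42 to 9.25 CPM, but it was not called (log2 change 0.47, SE 0.327, adjusted p 0.385 by limma-voom). A limma-voom fit of only these groups called it (0.47, adjusted p 0.161). With all 16 libraries *Insig2* was not called either (0.23, adjusted p 0.501 by limma-voom). It was called without HFD 4 (0.47, adjusted p 0.0981), whereas without HFD 1 the change was 0.03 (adjusted p 0.937). It was also called with library totals (0.51, adjusted p 0.125). The changes of *Srebf2* (-0.06), *Insig1* (-0.27), *Stard4* (-0.01) and *Tmem97* (-0.06) had 95% intervals that included 0. Over the 8 genes the median was -0.03, and over all genes it was 0.00697.

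In KD mice, HFD was accompanied by higher levels of 4 of the 8 genes and lower levels of none. In this comparison 20.2% of all genes were called, 10.1% higher, 3.1% at an adjusted p under 0.05, and 11.5% had groups that did not overlap. By limma-voom none of the 8 had an adjusted p under 0.05, and 4 had an unadjusted p under 0.05. This comparison shares the HFD/FGFR4 KD libraries with KD on HFD, so that a high level in those libraries enters both. The median of the 8 genes was 0.38 and that of all genes was -0.00875.

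*Srebf2* rose by 0.48 on the log2 scale from Chow/FGFR4 KD to HFD/FGFR4 KD (SE 0.148, limma-voom adjusted p 0.0856), and by 0.59 without HFD/FGFR4 KD 1. It stayed called in 8 of 8 fits without a library. *Insig1* rose by 0.68 (SE 0.267, adjusted p 0.165), a call lost without Chow/FGFR4 KD 2 (0.50), Chow/FGFR4 KD 4 (0.61), HFD/FGFR4 KD 3 (0.52) or HFD/FGFR4 KD 4 (0.62). Without HFD/FGFR4 KD 1 it was 0.84 (adjusted p 0.0870). *Stard4* rose by 0.42 (SE 0.170, adjusted p 0.172) from 105, 84.3, 74.2 and 86.0 CPM to 109 to 127 CPM, with no overlap. Its call was lost without Chow/FGFR4 KD 2 (0.41), 3 (0.35) or 4 (0.42), without HFD/FGFR4 KD 2 (0.44), 3 (0.38) or 4 (0.46), and with no filter on low counts (0.42, limma-voom adjusted p 0.281).

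*Npc1* rose by 0.46 in the same comparison (SE 0.204, limma-voom adjusted p 0.212), from 72.7, 86.7, 81.5 and 47.2 CPM to 79.2 to 111 CPM. That call was lost without Chow/FGFR4 KD 1 (0.47) or 4 (0.28), without HFD/FGFR4 KD 2 (0.40), 3 (0.46) or 4 (0.43), and with no filter on low counts (0.46, adjusted p 0.317). Here 4 of 11 Kupffer cell and macrophage markers were called higher (median log2 change 0.52), and 10 of 11 without HFD/FGFR4 KD 1 (median 0.74). Their summed levels were 96.6 to 132 CPM in Chow/FGFR4 KD and 120 to 211 CPM in HFD/FGFR4 KD. Their part in the change of *Npc1* was not tested. *Tmem97* missed the threshold (0.30, SE 0.149, adjusted p 0.276), and was called without HFD/FGFR4 KD 1 (0.39, adjusted p 0.148). Without that library 5 of the 8 genes were called higher, with *Stard4* at 0.42 and *Npc1* at 0.56, and *Scap* (0.13), *Insig2* (-0.08) and *Mylip* (0.44) were not called.

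Across the 16 libraries, *Srebf2*, *Insig1* and *Tmem97* varied together. Pearson's r of log2 CPM was 0.85 between *Srebf2* and *Insig1*, 0.73 between *Srebf2* and *Tmem97* and 0.72 between *Insig1* and *Tmem97*. With the group means removed, these were 0.79, 0.63 and 0.61. Libraries share depth and scaling, and 16 of them came from 4 groups, so these values describe the libraries and carry no p. The mean of 20 cholesterol synthesis genes had an r of 0.92 with *Srebf2*, 0.89 with *Insig1* and 0.81 with *Tmem97*. Without HFD/FGFR4 KD 1 these r-values were 0.92, 0.90 and 0.82, and those between the 3 genes were 0.85, 0.74 and 0.72. Over 16 libraries the mean of the synthesis genes had an r of 0.51 with *Stard4* and 0.40 with *Scap*, and values from -0.06 to 0.05 with *Insig2*, *Mylip* and *Npc1*.

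**Figure D4:**
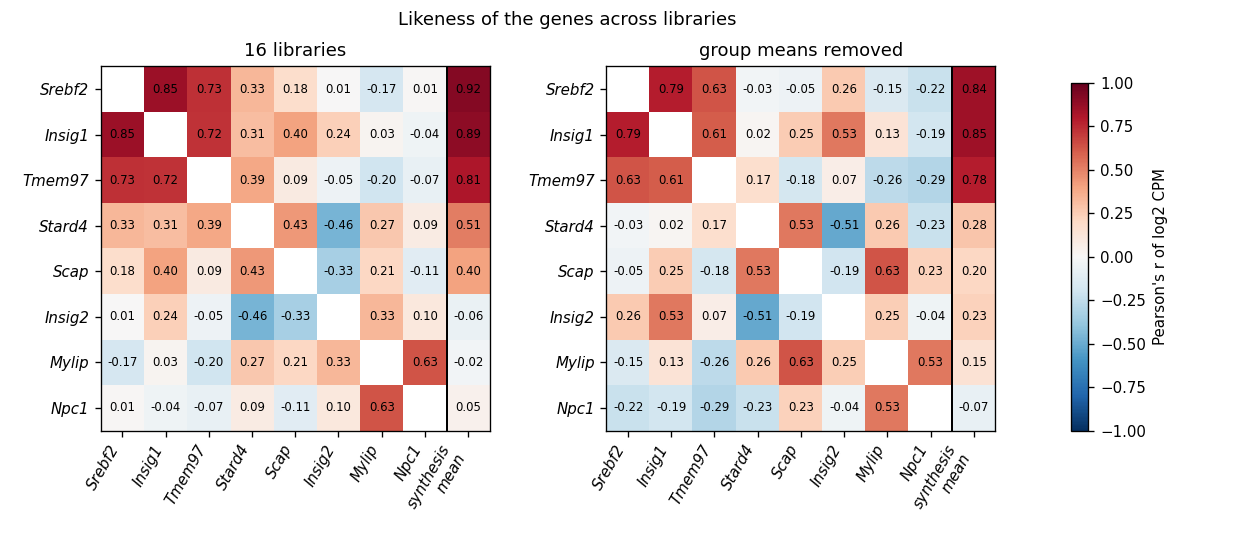
Pearson's r of log2 CPM between the genes and with the mean of 20 cholesterol synthesis genes (last column), over 16 libraries (left) and with group means removed (right). *Srebf2*, *Insig1* and *Tmem97* form a block with r from 0.72 to 0.85 on the left and 0.61 to 0.79 on the right.

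Among 10508 named genes, the closest to *Srebf2* across the libraries were *Fdft1* (r 0.92), *Fdps* (0.91), *Hmgcs1* (0.90), *Mvd* (0.88) and *Msmo1* (0.87), all enzymes of cholesterol synthesis. Among the 5 closest to *Insig1* were *Tfrc* (r 0.91), the transferrin receptor, *Fdft1* (0.90), *Lss* (0.88) and *Acsl3* (0.87), an acyl-CoA synthetase. Removing the group means left r between 0.74 and 0.86 for *Srebf2* and between 0.86 and 0.92 for *Insig1*.

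Other genes of the pathway were read from lists of names. Of 10 genes of SREBP processing and sterol sensing in the endoplasmic reticulum, none was called by limma-voom with KD on HFD or with KD on chow (medians -0.08 and 0.09), and none had an unadjusted p under 0.05 in either. With HFD in saline mice 2 of the 10 were called, both higher, against 26% of all tested genes. They were *Rnf145* (0.70), a ubiquitin ligase of the endoplasmic reticulum, and *Srebf1* (0.82), the SREBP gene of fatty acid synthesis. Cholesterol synthesis was different: with KD on HFD 14 of 20 genes were called higher and none lower, with a median of 0.78. The 4 with the smallest p were *Tm7sf2* (0.75), *Idi1* (1.18), *Nsdhl* (0.85) and *Cyp51* (1.03). On chow the list had a median of -0.09, with 1 gene at an unadjusted p under 0.05 and none called. With HFD in saline mice 6 of 20 were called lower and 1 higher, against 26% of all tested genes called. The lower ones were led by *Tm7sf2* (-0.58), *Idi1* (-0.70) and *Cyp51* (-0.63), and the list median was -0.20. With HFD in KD mice 15 were called higher and none lower, with a median of 0.61. The numbers called higher without HFD/FGFR4 KD 1 were 14 with KD on HFD (median 0.88) and 18 with HFD in KD mice (median 0.72).

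Of 13 genes of LDL uptake, none was called by limma-voom with KD on either diet, and 1 had an unadjusted p under 0.05 on HFD. With HFD in saline mice 4 of the 13 were called higher and none lower, against 26% of all tested genes called. Among them were *Vldlr* (2.12), *Usp2* (1.85) and *Dab2* (0.66), an endocytic adaptor. With HFD in KD mice 4 of the 13 were called higher and none lower, against 20.2% of all tested genes called. *Lrpap1* (0.29), *Usp2* (1.53) and *Vldlr* (1.11) were among these.

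Of 16 genes of lysosomal and intracellular sterol transport, 1 was called with KD on HFD, *Lamp1* (-0.25), a lysosomal membrane protein, and the median was close to 0 (-0.000789). With HFD in saline mice 2 of the 16 were called higher and 1 lower, against 26% of all tested genes called. *Lipa* (0.51), which encodes the lysosomal acid lipase, and *Gramd1c* (0.26) were higher and *Scarb2* (-0.25) was lower. Among 7 genes of LXR and its targets, the sterol exporters *Abcg8* (-1.18) and *Abcg5* (-0.61) were called lower with KD on HFD and none higher, with a median of -0.40. With HFD/FGFR4 KD 1 left out, 1 of the 7 was called lower and the median was -0.53. *Mylip*, itself an LXR target, had -0.60 in that comparison without being called. With HFD in saline mice 2 of the 7 were called, *Abcg1* (1.65) and *Abcg8* (0.51), both higher, against 26% of all tested genes. *Mylip* had 0.47 there without being called.

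**Figure D5:**
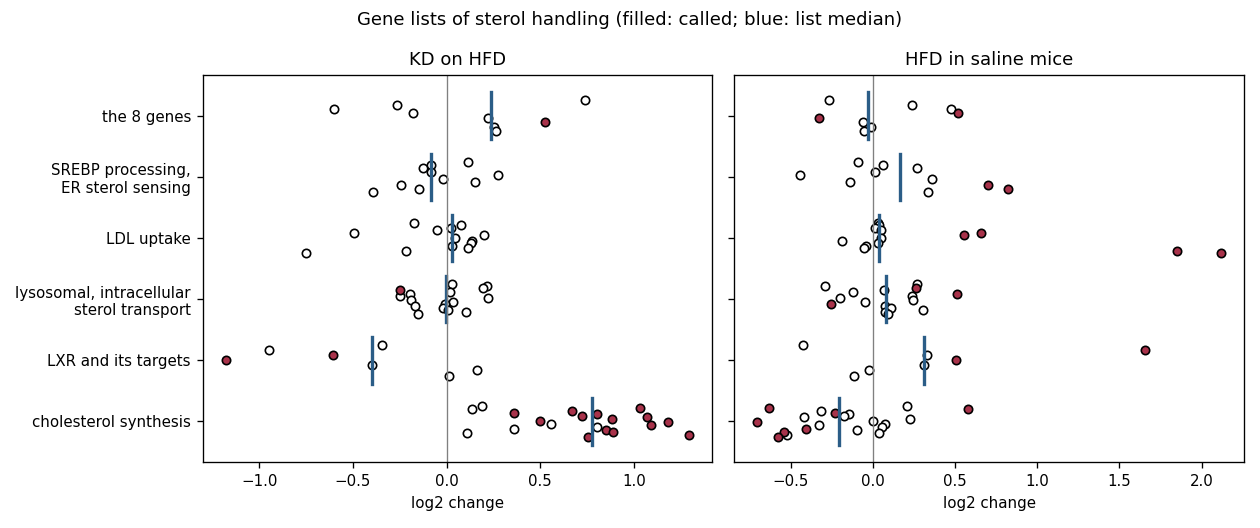
Log2 change (horizontal axis) of the genes of 6 lists with KD on HFD (left) and with HFD in saline mice (right). Each point is a gene, filled where called, and the blue bar is the median of the list. With KD on HFD the cholesterol synthesis genes had a median of 0.78, and the 8 genes followed here had one of 0.24.

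Clock genes moved with the same comparisons, and most of them cycle over the day. They were read from lists named here by a member. The *Arntl* list held 5 genes and the *Dbp* list 9, of which 8 were tested. With KD on HFD 3 of 5 genes of the *Arntl* list were called higher, with a median of 1.05. Of the *Dbp* list 2 of 8 were called lower, with a median of -0.30. With HFD in saline mice the *Arntl* list was called lower in 5 of 5 cases and the *Dbp* list higher in 6 of 8. With HFD in KD mice these were 5 of 5 and 7 of 8. When HFD/FGFR4 KD 1 was left out, KD on HFD called 1 of 5 genes of the *Arntl* list higher (median 0.90). It then called none of the 8 of the *Dbp* list (median -0.21). The number of all tested genes called was then 137 in place of 356. The summed level of the *Arntl* list was 51.3 to 75.8 CPM in HFD and 87.5 to 135 CPM in HFD/FGFR4 KD. SREBP-2 targets are known to cycle over the day in liver, and the part of the clock genes in the changes of *Srebf2* and *Insig1* was not tested.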

How the data were processed

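As the study's methods describe, the authors passed liver RNA-seq reads through kallisto and summed transcripts to genes with tximport. The submitters' processing notes also name fastp and GRCm38, and tool versions are not given in the sources used here. The deposited values are estimated counts, of which 7.85% to 11.1% per library were not whole. Totals of 3445949 to 5976449 per library set the precision.

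Genes under 1 CPM in more than 4 of the 16 libraries were removed, which left 11324. TMM factors, from 0.836 to 1.17, were computed with edgeR 4.0.16 and the counts fitted with limma-voom (limma 3.58.1, R 4.3.3) with a mean per group. p-values were adjusted by Benjamini-Hochberg over all tested genes. The study describes each library as a separate mouse. DESeq2 1.42.0, run on counts rounded to whole numbers, edgeR's quasi-likelihood test, other scalings, filters, quality weights, a replicate block and leaving out each library were alternatives. Lists and correlations without HFD/FGFR4 KD 1 were added after the data were seen. Log2 CPM used a prior count of 2. Symbols were found for 98.3% of genes, and gene positions are from GENCODE M21 on GRCm38. Within groups, 24 pairs of libraries differed with a chi-square of 7.59 to 72.6 per degree of freedom over 7405 genes, so none was a copy. Pipelines were tested on simulated data.

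The genes and lists were chosen with earlier results of these data known. All 8 genes are named whatever they showed, with the closest 5 genes to *Srebf2* and *Insig1*, and at most 4 called genes per list and comparison with the smallest p. Some genes of the lists are not reported here by name.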

Additional observations from a re-analysis of the deposited data

Results flagged for a closer look

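*Stard4* stood alone in 1 library of each control group. Its level was 137 CPM in Chow 1, where the other Chow libraries had 84.9 to 91.3 CPM, and 142 CPM in HFD 4, where the other HFD libraries had 83.1 to 89.1 CPM. The gap to the nearest library exceeded Dixon's 95% limit in both groups. Among 32 groups of values examined (8 genes in 4 groups), chance gives about 1 in 20, or 1.6.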

How the results depend on the processing

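The number of the 8 genes called with KD on HFD, 1 by limma-voom, was 0 at an adjusted p under 0.05 and with library totals only, 2 with DESeq2, 3 with library quality weights and 2 with a replicate block. Leaving out single libraries gave 0 to 2. With HFD in saline mice it was 1 in place of 2 at an adjusted p under 0.05 and 1 to 2 without single libraries. With only the groups compared it was 3 there, as *Mylip* was called too. With HFD in KD mice it was 0 in place of 4 at an adjusted p under 0.05, 2 with no filter, 6 with library totals only, 5 with quality weights, 5 with only the groups compared and 1 to 5 without single libraries. For the difference between the KD effects DESeq2 gave 1 in place of 0, and KD on chow gave 0 in all alternatives run. No called change turned its sign. Deviations of same-numbered libraries had correlations from -0.29 to 0.24. Those of libraries with different numbers were not computed, so whether the replicate numbers pair the libraries was not settled. The added call under the block was *Insig1* (0.74, adjusted p 0.205 by limma-voom). With library totals only, the number of all genes called with KD on HFD was 114 in place of 356, and with quality weights it was 776. Depth limits *Mylip* most, at 3 to 48 counts per library. The cause of these shifts was not tested.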
